A study of Homo sapiens with 2 samples.

Results

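Chromosome 16 was followed gene by gene in 2 RNA libraries of T47D, an established line of luminal breast cancer cells. The members were chosen by position and level: all RefSeq transcripts placed on chromosome 16 (build hg19) in both deposited tables were summed per gene, genes at 1 FPKM or more in either library were kept, and they were divided at starts of 40 Mb and 60 Mb. The bounds of these classes, and the names left out (the metallothionein genes MT1 and MT2A, and CDH1, PYCARD, HERPUD1 and RPS2), were selected on the same comparison that is described here, so the differences between classes are a description and carry no test. The rule left 610 of the 12507 genes measured in the series: 348 with starts below 40 Mb, all on the short arm, 61 with starts between 40 and 60 Mb on the proximal long arm, and 201 with starts above 60 Mb on the distal long arm.

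One library (shNT) is of cells that carried a non-targeting hairpin by transduction and were labelled RON proficient, the other (shRON) from cells with a hairpin against RON, the receptor tyrosine kinase encoded by MST1R, labelled RON knockdown. Both cultures were selected in 5 ug/mL and kept in 1 ug/mL puromycin, in high-glucose DMEM with 10% serum. Whether the hairpin lines were clones or pools was not given in the sources used here, and the name of the control table calls its cells wild type. Each group was 1 library, so no replicate spread could be measured and each difference is one between 2 libraries.

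The short arm of chromosome 16 is gene-rich toward its tip and carries many stretches of near-identical sequence. A large block of heterochromatin lies at the start of the long arm, followed by a gene-poor proximal part with the IRX transcription factor cluster and a cluster of chemokine genes, and by a gene-dense end. Loss of the long arm is a frequent copy-number change of luminal breast tumours. DNA was not measured in these libraries.

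All 8 luminal markers (among them ESR1, GATA3 and KRT8) reached 1 FPKM, and so did 2 of 6 fibroblast markers, 0 of 6 immune markers and 0 of 5 endothelial markers. MST1R had 12.1 FPKM with shNT and 9.10 with shRON. Coverage times transcript length summed to 2.90 gigabases of sequence with shNT and 2.77 gigabases with shRON. FPKM over all transcripts summed to 398372 and 382330, and the median log2 ratio of all measured genes was 0.04.

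The 4 stretches of sequence below lie just before the start of members that stand for the 2 behaviours described in the next paragraphs. VPS35, a subunit of the retromer that recycles membrane proteins from endosomes, and GOT2, the mitochondrial aspartate aminotransferase, mark the first and the last part of the proximal long arm and were lower in shRON. SOCS1, an inhibitor of cytokine signalling on the short arm, and PSMB10, an immunoproteasome subunit gene on the distal long arm, were higher in shRON while most of their neighbours were lower. SOCS1 (0.564 FPKM with shNT, 2.88 with shRON) passed the filter only through shRON and so had to be higher. Sequences are from RefSeq (promoter table of build GRCh38.p14), were placed on GRCh37, the build of the deposited tables, by a single exact match, and are written 5′ to 3′ on the strand of the gene, which is the minus strand for all 4. Capitals mark CCAAT boxes in VPS35, a GC box in GOT2 and the core of the interferon-stimulated response element, the site of IRF proteins, in SOCS1 and PSMB10. The motif to mark was chosen for each gene, so the marks do not compare the genes. VPS35 also holds 2 GC boxes and SOCS1 holds 3, left in lower case.
VPS35 (chr16:46723145-46723340): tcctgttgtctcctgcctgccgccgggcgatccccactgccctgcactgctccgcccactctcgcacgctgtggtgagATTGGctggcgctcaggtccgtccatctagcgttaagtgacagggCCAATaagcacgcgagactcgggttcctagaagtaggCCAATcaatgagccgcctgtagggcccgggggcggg
GOT2 (chr16:58768247-58768470): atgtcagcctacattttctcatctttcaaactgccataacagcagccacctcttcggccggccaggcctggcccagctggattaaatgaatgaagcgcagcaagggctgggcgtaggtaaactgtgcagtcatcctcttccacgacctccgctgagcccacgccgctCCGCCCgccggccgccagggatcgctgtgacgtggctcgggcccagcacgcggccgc
SOCS1 (chr16:11350062-11350311): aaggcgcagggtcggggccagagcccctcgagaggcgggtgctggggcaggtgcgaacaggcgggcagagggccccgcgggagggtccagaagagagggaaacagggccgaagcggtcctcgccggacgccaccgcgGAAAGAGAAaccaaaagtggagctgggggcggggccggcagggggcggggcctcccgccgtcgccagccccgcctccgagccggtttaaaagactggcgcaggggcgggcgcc
PSMB10 (chr16:67970754-67971003): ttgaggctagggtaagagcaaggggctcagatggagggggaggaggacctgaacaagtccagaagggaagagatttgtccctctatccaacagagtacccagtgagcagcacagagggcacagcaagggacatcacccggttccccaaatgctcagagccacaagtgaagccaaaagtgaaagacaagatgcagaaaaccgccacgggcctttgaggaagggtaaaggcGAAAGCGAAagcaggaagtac

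Motifs were searched on both strands of the 250 bases before each RefSeq start, as GAAANNGAA (interferon response core), CCAAT and GGGCGG (GC box), none of which can hold another. Among the 35093 such windows in the table, 6.88% held the interferon core, 32.0% a CCAAT box and 42.6% a GC box. By symbol, 378 of the 610 members had at least 1 window. The interferon core was in 5.19% of 289 windows of the short arm, 3.33% of 60 windows of the proximal long arm and 1.70% of 176 windows of the distal long arm. A GC box was in 69.2%, 65% and 69.3% of them, and a CCAAT box in 34.6%, 33.3% and 34.7%. The median GC content of the windows was 67.6%, 64% and 67.4% in the 3 classes and 58% in the whole table. The class windows belong to genes at 1 FPKM or more, while the whole table was not filtered by level. These sets are unlike, so the differences between them are not read as traits of chromosome 16. A match is a description of letters and not a binding site.

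Most genes along the whole chromosome were lower in the shRON library, and those of the proximal long arm were lowest. Log2 ratios compare shRON with shNT after adding 1 to each FPKM, which pulls the ratios of genes at low levels toward 0. The median log2 ratio was -0.28 on the short arm, -0.74 on the proximal long arm and -0.29 on the distal long arm, against 0.06 over the 11890 measured genes of the other chromosomes. These medians equal values of FPKM + 1, not of FPKM itself, that were 17.8%, 40.2% and 18.4% lower in shRON. The short arm and the distal long arm thus had nearly the same median, and the long arm did not move as a whole: its first stretch of measured genes stood lower than both the short arm before it and the rest of the long arm after it.

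**Figure D1:**
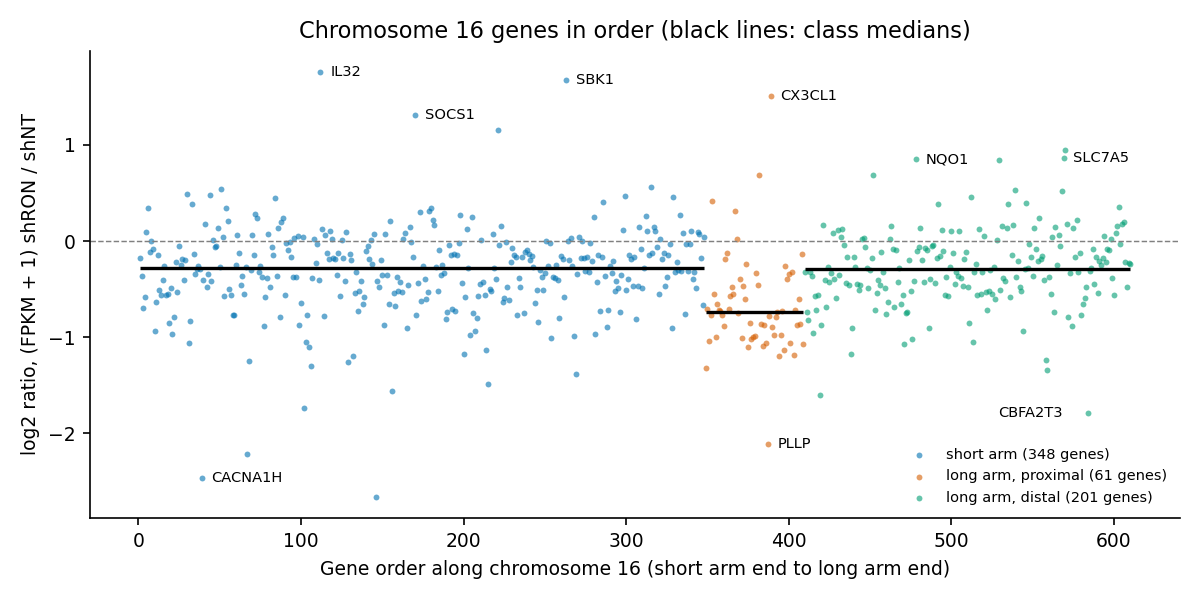
Log2 ratio of shRON over shNT (FPKM + 1) for each of the 610 chromosome 16 genes in their order along the chromosome, coloured by position class, with class medians as black lines. The line drops from -0.28 on the short arm to -0.74 over the 61 genes of the proximal long arm and returns to -0.29.

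On the short arm 272 of 348 genes (78.2%) had log2 ratios below 0, on the proximal long arm 56 of 61 (91.8%) and on the distal long arm 156 of 201 (77.6%), where 46.0% of all measured genes did. At 1.5-fold or more, 68 short-arm genes (19.5%), 40 proximal genes (65.6%) and 34 distal genes (16.9%) were lower, against 8.88% of all measured genes. Genes higher by 1.5-fold numbered 4, 2 and 5, or 1.15%, 3.28% and 2.49%, against 9.99%. At 2-fold or more, 17, 14 and 8 were lower (2.18% of all measured genes) and 4, 1 and 0 were higher (3.37%). Because this comparison chose the classes, nothing is read from these counts beyond their size. A gene that reached 1 FPKM in 1 library only had its direction set by the filter, and this held for 35 members with shNT only (20 on the short arm, 8 proximal, 7 distal) and 11 with shRON only (6, 1 and 4). Among genes at 1 FPKM or more in both libraries, a setting added after seeing the data, the medians were -0.28, -0.73 and -0.28.

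The proximal genes differed from the others by a shift of the whole distribution rather than by a few low genes. Their quartiles were -0.99 and -0.46, those of the short arm -0.53 and -0.03, and those of the distal long arm -0.52 and -0.05. Within 0.25 of their own class median lay 28 of 61 proximal, 174 of 348 short-arm and 109 of 201 distal genes. In summed FPKM the classes stood at 0.564 (proximal), 0.747 (short arm) and 0.829 (distal) of their shNT totals. The measured genes of other chromosomes stood at 0.969. Such sums weigh the most abundant genes most, so they need not follow the medians. The proximal long arm took 0.309% of all sequenced bases in shNT and 0.183% in shRON, the short arm 2.36% and 1.84%, and the distal long arm 1.65% and 1.47%.

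**Figure D2:**
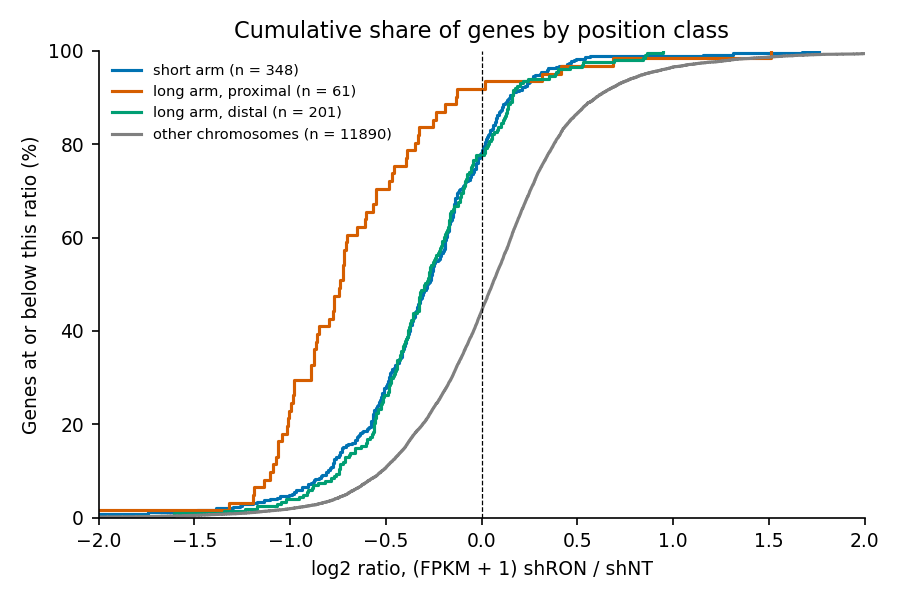
Cumulative share of genes (%) at or below each log2 ratio (FPKM + 1, shRON over shNT) for the 3 position classes and for the 11890 measured genes of other chromosomes, from -2 to 2. The curves of the short arm and the distal long arm nearly coincide, and the curve of the proximal long arm lies to their left until 91.8% of its genes are counted at 0.

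The shift was seen at each level of expression. Proximal genes with a mean under 5 FPKM had a median of -0.72 (30 genes), those between 5 and 20 FPKM -0.73 (21 genes) and those at 20 FPKM or more -0.99 (10 genes). On the short arm the same bands stood at -0.20, -0.26 and -0.40, on the distal long arm at -0.18, -0.28 and -0.34, and on other chromosomes at 0.11, 0.08 and -0.02. Medians of proximal genes on the plus and minus strand were -0.72 (25 genes) and -0.74 (27 genes), and those of genes with 1 or several transcripts -0.77 and -0.69. The strands were less alike away from the median. Below 0 were 20 of 25 plus-strand and 27 of 27 minus-strand genes. Lower by 2-fold were 1 and 9, and higher by 1.5-fold 2 and 0. Counted by transcript instead of by gene, the medians were -0.27 (445 transcripts), -0.74 (73) and -0.28 (270).

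The bounds of the classes fall in stretches with no measured gene. Between LOC729264 on the short arm and SHCBP1 on the long arm lay 14.3 Mb and 18 genes under 1 FPKM, and between GOT2 and TK2, the mitochondrial thymidine kinase gene, 7.80 Mb and 10 such genes. LOC729264 was at 1.05 FPKM with shNT and 1.11 with shRON (log2 ratio 0.04), and SHCBP1 at 6.51 and 2.0 (-1.32). GOT2 was at 51.0 and 23.7 (-1.07), and TK2 at 2.75 and 2.0 (-0.32). The last 10 short-arm members (LOC100507092 to LOC729264) had a median of -0.10 and the first 10 proximal members (SHCBP1 to ABCC11) one of -0.72.

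At the far bound the passage was less abrupt. The last 10 proximal members (MMP15 to GOT2) had a median of -0.79 and the first 10 distal members (TK2 to CES3) one of -0.64, with 10 of 10 below 0 on each side. In blocks of about 20 consecutive genes, the proximal long arm read -0.71 (SHCBP1 to CHD9), -0.86 (RBL2 to CX3CL1) and -0.83 (CIAPIN1 to GOT2). The distal blocks began at -0.42 (TK2 to LRRC29) and -0.29 (TMEM208 to EDC4), and the others lay between -0.42 and -0.12. Short-arm blocks lay between -0.51 (ABCC6P2 to ABCC6P1, a stretch with near-identical gene copies) and -0.12 (GNPTG to NOXO1).

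On the proximal long arm the genes of membrane trafficking, like most of the class, were lower with shRON. VPS35 was at 38.5 FPKM with shNT and 23.2 with shRON, an FPKM ratio of 0.603 with an approximate 95% Clopper-Pearson interval of 0.559 to 0.650 on estimated fragments, which covers counting error only here and below. ARL2BP, a partner of a small GTPase of the ARL family, was at 22.0 and 9.98 FPKM (log2 ratio -1.07). AKTIP, of a complex that links endosomes to motor proteins, was at 16.2 and 7.54 (-1.01). SIAH1, a ubiquitin ligase gene, was close to equal at 7.69 and 6.60 (-0.19) but overlaps LOC100507577 (2.85 to 1.08, -0.89), so reads could be shared. DNAJA2, which encodes a co-chaperone, was at 18.1 and 12.0 FPKM (-0.55).

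The 3 genes of the mitochondrial list in this stretch were lower by more than the class median. GPT2, a mitochondrial enzyme gene that is described below and is not on the list, was higher. GOT2 had an FPKM ratio of 0.465 (approximate interval 0.428 to 0.504). COQ9, needed for coenzyme Q synthesis, was at 25.5 and 12.5 FPKM (-0.98), and CIAPIN1, an iron-sulfur cluster assembly gene, at 20.9 and 10.8 (-0.89). COQ9 and CIAPIN1 are neighbours on opposite strands that overlap in the tables, and whether reads were counted by strand was not given in the sources used here. LONP2, the gene of a related protease that works in peroxisomes, was at 9.87 and 5.36 FPKM (-0.77).

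Nuclear genes of the proximal long arm were lower too, with the IRX factors apart from each other. NUDT21, a subunit of the complex that sets poly(A) sites, was at 27.8 FPKM with shNT and 13.3 with shRON (-1.0), its neighbour OGFOD1 at 13.9 and 6.52 (-0.99), and CNOT1, the scaffold of the deadenylase complex, at 21.1 and 11.2 (-0.86). POLR2C, a subunit of RNA polymerase II, was at 27.3 and 15.3 (-0.80). IRX5 was at 38.8 and 21.1 FPKM (-0.85) and IRX3, a related homeobox gene in the same cluster, at 46.8 and 39.4 (-0.24). The noncoding gene CRNDE, next to IRX5, was at 42.5 and 19.2 (-1.10). Chromatin genes BRD7 (17.8 to 11.8, -0.55) and CHD9 (3.25 to 1.53, -0.75) were also lower, as was RBL2, of the retinoblastoma family (13.7 to 10.2, -0.40), which overlaps AKTIP.

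Genes for DNA replication stood at low levels here. ORC6L, a subunit of the origin recognition complex, was at 4.80 FPKM with shNT and 1.81 with shRON (-1.05), and GINS3, of the replicative helicase, at 3.22 and 1.30 (-0.88). SHCBP1, which is linked to dividing cells, had an FPKM ratio of 0.308 (approximate interval 0.243 to 0.388). These 3 genes were thus further down than the class median of -0.74.

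Genes of membrane proteins on the proximal long arm included its lowest. PLLP, which encodes the myelin and epithelial protein plasmolipin, was at 5.84 FPKM with shNT and 0.580 with shRON, an FPKM ratio of 0.0994 (approximate interval 0.0515 to 0.176). GPR56, an adhesion receptor gene with the highest shNT value of the class, was at 57.8 and 28.8 (-0.98). The ABC transporter genes ABCC11 (25.1 to 14.8 FPKM, -0.73) and ABCC12 (1.41 to 0.464, -0.72) are adjacent and had nearly the same log2 ratio. PLLP and ABCC12 passed the filter only through shNT and so had to be lower. The amino acid transporter gene SLC38A7 was at 4.93 and 4.40 FPKM (-0.13), with an interval of the FPKM ratio of 0.726 to 1.10 that includes 1.

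Besides PLLP, SHCBP1, CRNDE, GOT2, ARL2BP, ORC6L, AKTIP and NUDT21, the genes lower by 2-fold included CCDC102A (3.50 to 0.966 FPKM), KIFC3, a kinesin gene (2.87 to 0.760), FAM192A (22.3 to 9.94), C16orf80 (12.5 to 5.45) and LOC100505792 (3.56 to 0.997), which overlaps CSNK2A2. CCDC102A, KIFC3 and LOC100505792 passed the filter only through shNT. The 14 genes lower by 2-fold were spread from the first to the last gene of the class.

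The remaining proximal genes were spread around the class median. FTO, an RNA demethylase gene, was at 9.50 and 5.89 FPKM (-0.61), PHKB, a subunit of phosphorylase kinase, at 7.04 and 4.11 (-0.65), and RSPRY1 at 10.1 and 5.04 (-0.88). ITFG1 was at 28.1 and 13.6, at the edge of 2-fold (-1.0). Genes of primary cilia, in which RPGRIP1L and BBS2 act, were at -0.47 and -0.33. The genes with the smallest differences below 0 were N4BP1 (4.70 to 4.22 FPKM, -0.13), SLC38A7, SIAH1, IRX3 and ZNF319 (1.10 to 0.755, -0.26). Of the others, NUP93, a nuclear pore gene (10.6 to 7.45, -0.46), CSNK2A2, a casein kinase subunit gene (7.90 to 6.10, -0.33), C16orf57 (5.53 to 3.98, -0.39) and MMP15, a membrane-bound metalloprotease gene (2.79 to 1.97, -0.35), also stayed above the median of the class.

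Only 5 of the 61 proximal genes had log2 ratios above 0, and 4 of these are immune genes. CX3CL1, a membrane-bound chemokine, was at 0.106 FPKM with shNT and 2.14 with shRON. It passed the filter only through shRON and so had to be higher. Its FPKM ratio was 20.3, but about 5.48 fragments stood behind the shNT value and the approximate interval ran from 8.42 to 63.9. NLRC5, the transactivator of MHC class I genes, was at 3.18 and 5.72 (ratio 1.80, interval 1.56 to 2.07), the bacterial peptide sensor NOD2 at 2.80 and 3.73 (1.33, 1.10 to 1.62), and CYLD, a deubiquitinase that restrains NF-kB signalling, at 3.65 and 3.70 (1.01, 0.891 to 1.15). The fifth was GPT2, the mitochondrial alanine aminotransferase, at 5.76 and 8.02 FPKM (1.39, 1.21 to 1.61). CCL22, the chemokine gene next to CX3CL1, was lower at 2.51 and 1.05 FPKM (-0.78).

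**Figure D3:**
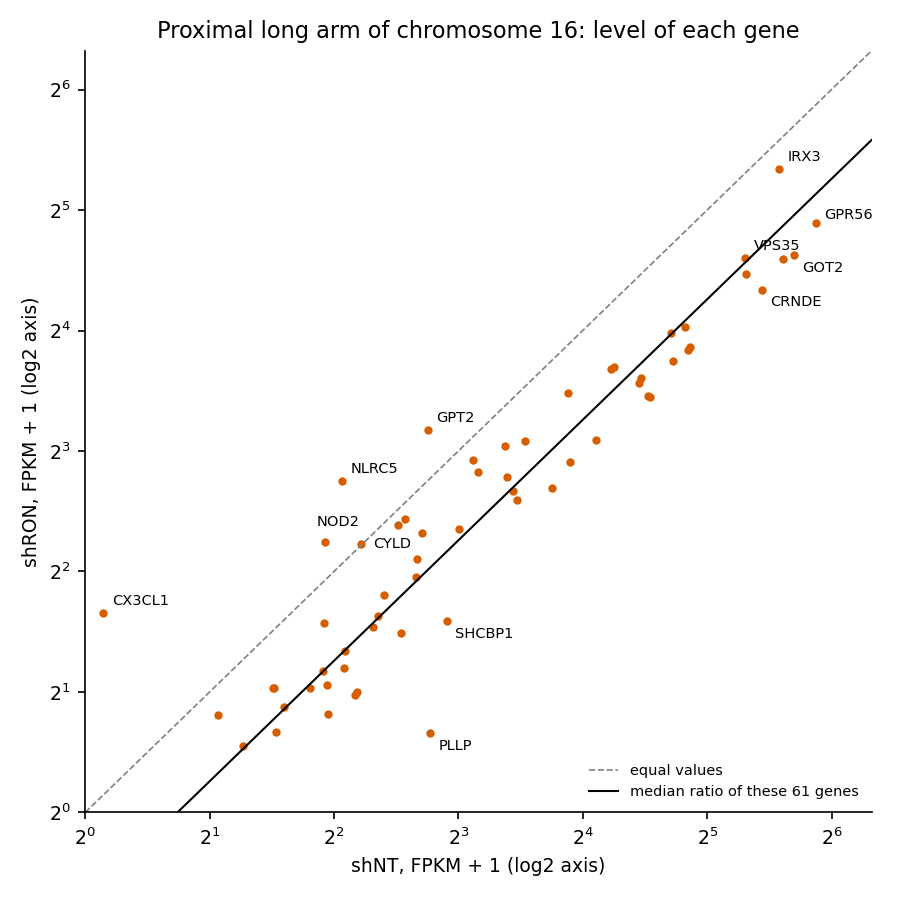
Level of each of the 61 genes of the proximal long arm in shNT (x) and shRON (y), as FPKM + 1 on log2 axes, with the line of equal values dashed and the line of the median log2 ratio of -0.74 solid. Most genes follow the solid line from low to high levels, and CX3CL1, NLRC5, NOD2, GPT2 and CYLD lie at or above the dashed one.

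On the short arm the most abundant genes were lower by moderate amounts. RPS15A, a ribosomal protein gene, was at 1131 FPKM with shNT and 762 with shRON (log2 ratio -0.57), and ALDOA, the glycolytic aldolase, at 1034 and 619.9 (-0.74, FPKM ratio 0.599, approximate interval 0.587 to 0.612). NUPR1, a stress-induced nuclear protein gene, was the exception among the 3 most abundant, at 245 and 250.5 FPKM (0.03). ATP6V0C, a subunit of the proton pump of lysosomes, was at 237 and 136 (-0.79).

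The lowest short-arm genes were far below the median of their class. CACNA1H, which encodes a T-type calcium channel (chr16:1203241-1271772, plus strand), was at 18.1 FPKM with shNT and 2.44 with shRON, an FPKM ratio of 0.135 (approximate interval 0.119 to 0.154). NPW, a neuropeptide gene, was at 9.60 and 1.27 (0.132, 0.0762 to 0.217), and KREMEN2, a receptor of the WNT antagonist DKK1, at 8.21 and 1.75 (0.214, 0.156 to 0.288). ABAT, the enzyme that breaks down GABA, was at 13.5 and 3.93 (0.290, 0.253 to 0.332). The lowest ratio was that of LOC440335, at 6.93 and 0.253 FPKM from about 44.4 and 2.46 fragments, a gene kept by its shNT value alone. None of these 5 overlapped another measured gene.

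Other short-arm genes with large differences were TNFRSF12A, the receptor of the cytokine TWEAK (62.4 to 24.8 FPKM, -1.30), and SLC9A3R2, a scaffold of membrane transporters (55.2 to 22.6, -1.25). SULT1A1, a sulfotransferase gene, was at 19.9 and 7.0 FPKM (-1.39), but it is near-identical to SULT1A2 (1.10 to 0.0592, kept by its shNT value alone) and other copies. The copies NOMO1, NOMO2 and NOMO3 stood at -0.74, -0.94 and -0.98, and the split of reads between these copies is uncertain. Of the 20 short-arm members with near-identical copies 18 were below 0, with a median of -0.31, close to the class median. However, 9 of them (45%) were lower by 1.5-fold, against 19.5% of the class. With such families left out, 59 of 328 short-arm genes were lower by 1.5-fold.

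Higher short-arm genes were few. IL32, a cytokine gene, was at 5.35 FPKM with shNT and 20.5 with shRON (FPKM ratio 3.83, approximate interval 2.99 to 4.96), and SBK1, a kinase gene, at 1.13 and 5.79 (5.14, 4.05 to 6.58). SOCS1 was at 0.564 and 2.88 (5.11, 2.57 to 11.3, from about 9.79 and 52.1 fragments), and GPRC5B, an orphan receptor gene, at 0.125 and 1.51. SOCS1 and GPRC5B passed the filter only through shRON and so had to be higher. At 5 FPKM or more in either library, IL32 and SBK1 were followed by MAPK8IP3 (6.96 to 10.6 FPKM, 0.54), UNKL (6.85 to 9.94, 0.48), which overlaps GNPTG, and YPEL3 (18.5 to 25.9, 0.47), these 3 under 1.5-fold on the log2(FPKM + 1) scale.

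On the distal long arm the abundant housekeeping genes were lower by amounts like those of the short arm. RPL13, a ribosomal protein gene, was at 1282 FPKM with shNT and 882 with shRON (-0.54, FPKM ratio 0.688, approximate interval 0.673 to 0.703), and COX4I1, a subunit of cytochrome c oxidase, at 477 and 325.1 (-0.55). CTCF, the insulator protein gene, was at 19.8 and 17.6 (-0.16), and AARS, the alanyl-tRNA synthetase, at 62.1 and 58.8 (-0.08). CDH3, which encodes P-cadherin, was at 12.8 and 7.58 (-0.69), while the other 6 listed cadherin genes stayed under 1 FPKM in both libraries.

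The lowest distal genes had several roles. CBFA2T3, a transcriptional corepressor (chr16:88941267-89043401, minus strand), was at 21.3 FPKM with shNT and 5.46 with shRON (FPKM ratio 0.256, approximate interval 0.226 to 0.289). GINS2, of the replicative helicase, was at 58.1 and 24.1 (0.415, 0.369 to 0.465), and C16orf74, its neighbour, at 45.4 and 17.3 (0.381, 0.324 to 0.446). CYB5B, a cytochrome b5 of the outer mitochondrial membrane, was at 25.9 and 12.3 (-1.02), and MVD, a late enzyme of the mevalonate pathway, at 78.9 and 42.2 (-0.89). PDP2, the phosphatase that activates pyruvate dehydrogenase (5.68 to 2.44, -0.96), FAM65A (9.73 to 4.71, -0.91) and LOC100506031 (9.71 to 4.11, -1.07, overlapping COG8, NIP7 and PDF) completed the 8 lowest at 5 FPKM or more. CBFB, which encodes the partner of RUNX factors, was at 9.68 and 4.80 (-0.88).

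Several of the genes that stood higher on the distal long arm were abundant. NQO1, a quinone reductase of the antioxidant response (chr16:69743304-69760533, minus strand), was at 196 FPKM with shNT and 354 with shRON (FPKM ratio 1.81, approximate interval 1.76 to 1.86). SLC7A5, the light chain of a leucine transporter, was at 153 and 279 (1.82, 1.78 to 1.87), and LOC100506670, which lies inside SLC7A5, at 125 and 241 (1.94), so their reads cannot be told apart here. PSMB10 was at 27.2 and 44.6 (1.64, 1.44 to 1.86). MAF, a transcription factor gene, was at 0.224 and 1.19 FPKM and passed the filter only through shRON.

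At 5 FPKM or more and below 1.5-fold, KLHDC4 (9.32 to 13.8 FPKM, 0.52), MLKL, the executor of necroptosis (3.77 to 5.57, 0.46), MTSS1L (15.9 to 21.1, 0.39) and the tubulin gene TUBB3 (5.78 to 7.65, 0.35) followed on the distal long arm. These stood between 0.64 and 0.82 above the class median on the log2 scale. PSMB10, NQO1 and SLC7A5 stood 0.98, 1.14 and 1.16 above it.

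Genes were also grouped by function. Over all 610 members the median was -0.33, 79.3% were below 0, 23.3% were lower by 1.5-fold and 1.80% higher, and each list is set beside these shares, with no test and nothing called particular to it. Of 23 measured genes on the mitochondrial list 22 (95.7%) were below 0 and 5 (21.7%) were 1.5-fold lower, a share near that of all members, with 0 higher and a median of -0.50. The list is not complete and leaves out, among others, GPT2 (0.42) and TK2 (-0.32). The 14 on the short arm had a median of -0.49, the 3 on the proximal long arm -0.98 and the 6 on the distal long arm -0.41. NDUFAB1, the mitochondrial acyl carrier protein and a complex I subunit (196 to 109 FPKM, -0.84), and UQCRC2, of complex III (156 to 90.9, -0.77), were lowest on the short arm, and the pseudogene AFG3L1 on the distal long arm was the member above 0 (6.31 to 7.41, 0.20).

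The list named for lipid, sterol and sugar metabolism had a median of -0.56 over 31 members, the lowest of the lists with more than 1 measured member. Of these, 15 (48.4%) were 1.5-fold lower and 1 higher. The medians hardly differed by position, at -0.54 (14 genes), -0.63 (4) and -0.56 (13). FA2H, which hydroxylates fatty acids, was at 4.78 FPKM with shNT and 1.79 with shRON (-1.05), QPRT, of NAD synthesis, at 94.0 and 47.5 (-0.97), and CES3, a carboxylesterase gene, at 2.21 and 0.0514, the last value from about 2.58 fragments (FPKM ratio 0.0233, approximate interval 0.00474 to 0.0699). CES3 passed the filter only through shNT. NQO1 was the higher member. The list is broader than its name. It also holds GPR56, which is not an enzyme, the RNA demethylase gene FTO, and QPRT and NQO1. Its median and shares are those of this mixed list.

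Replication, repair and division genes stood near the values of all members. Of 27 members 23 (85.2%) were below 0, 7 (25.9%) were 1.5-fold lower and 0 higher (median -0.41), with medians of -0.30 on the short arm (10 genes), -0.88 on the proximal long arm (5) and -0.42 on the distal long arm (12). CDT1, which licenses origins, was at 16.3 FPKM with shNT and 9.15 with shRON (-0.77), and RFWD3, a ubiquitin ligase of DNA repair, at 13.7 and 7.14 (-0.86). The mitotic kinase gene PLK1 was at 27.7 and 21.8 (-0.33), and CCNF, which encodes cyclin F, was the highest member at 12.1 and 16.9 (0.45). NUDT21, an RNA processing gene, is held by this list as well.

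Trafficking and lysosome genes stood lower on the distal long arm than on the short arm. The 14 short-arm members had a median of -0.07, with 7 of 14 below 0, and the 15 distal members one of -0.48, with 15 of 15 below 0. Over all 31 the median was -0.44, with 6 (19.4%) lower by 1.5-fold and 0 higher. GABARAPL2, of the autophagy ATG8 family (115 to 69.6 FPKM, -0.72), and COG8, of the Golgi tethering complex (26.2 to 15.3, -0.74), were low on the distal long arm, while STX4, a plasma membrane syntaxin gene, was at 14.7 and 18.0 (0.27) on the short arm. These medians were not compared by a test.

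RNA processing and translation genes differed by modest amounts. Of 30 members 28 (93.3%) were below 0 but only 2 (6.67%) reached 1.5-fold lower, CNOT1 and RSL1D1 (32.1 to 20.9 FPKM, -0.60), and 0 were higher (median -0.33). Transcription and chromatin genes (42 members) had a median of -0.17, with 7 (16.7%) lower and 1 higher by 1.5-fold. Their 6 proximal members stood at a median of -0.65, against -0.14 over 24 short-arm and -0.10 over 12 distal members. SRCAP (13.4 to 13.7 FPKM) and CREBBP (8.52 to 9.19), which encode a chromatin remodeller and an acetyltransferase, were on the short arm.

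Ubiquitin and proteasome genes (24 members) had a median of -0.19, with 2 (8.33%) lower by 1.5-fold, RFWD3 among them, and PSMB10 higher. USP7, a deubiquitinase gene, was at 33.7 FPKM with shNT and 23.1 with shRON (-0.52), and PSMD7, a constitutive subunit of the proteasome lid next to a noncoding gene, at 27.9 and 21.1 (-0.39). Transporter and channel genes (18 members) had a median of -0.24, with 5 (27.8%) lower and 1 higher. SLC7A6, a relative of SLC7A5, was at 13.1 and 7.32 (-0.76), opposite in direction to SLC7A5.

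Immune, cytokine and death-receptor genes stood on both sides of 0. Of 18 measured among 39, 6 (33.3%) were 1.5-fold lower and 4 (22.2%) higher, with a median of -0.09. IL32, CX3CL1, SOCS1 and NLRC5 were higher, and TNFRSF12A, CMTM4 (9.08 to 4.72 FPKM, -0.82), IL4R (1.89 to 0.654, -0.80), CCL22, CKLF (24.3 to 14.2, -0.74) and the adaptor gene TRADD (19.2 to 11.5, -0.69) were lower. The filter fixed the direction of CX3CL1 and SOCS1, kept by shRON alone, and of IL4R, kept by shNT alone. The 5 proximal members, CX3CL1 among them, had a median of 0.32 in a class whose median was -0.74. Immune cell markers were at or near 0 in both libraries: PTPRC, CD3E, LYZ and TYROBP were listed at 0, and the 6 markers summed to 0.368 FPKM with shNT and 0.130 with shRON. In such bulk RNA, fewer cells with a transcript and less of it per cell cannot be told apart.

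**Figure D4:**
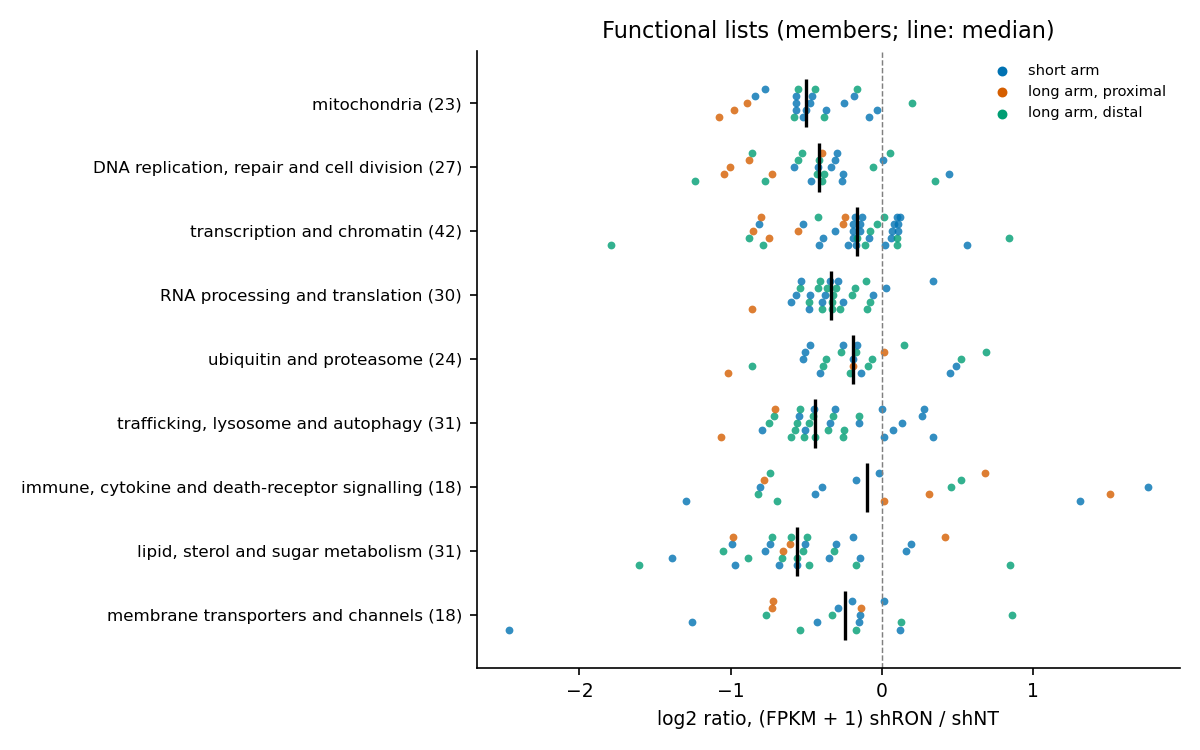
Log2 ratio (FPKM + 1, shRON over shNT) of the measured members of 9 functional lists of chromosome 16 genes, coloured by position class, with each list's median as a black line and the number of members in parentheses. Medians run from -0.56 (lipid, sterol and sugar metabolism) to -0.09 (immune, cytokine and death-receptor signalling), and the immune list spans both sides of 0.

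Against the rest of the genome, chromosome 16 had the lowest median log2 ratio of 23 chromosomes, at -0.33 over 617 genes with no name left out. It was followed by chromosome 15 (-0.28) and chromosome 5 (-0.25). In windows of 20 Mb with at least 20 measured genes, the window that holds the 61 proximal genes was the lowest of 151. The next were a window on chromosome 13 from 100 Mb (-0.59, 45 genes) and one on chromosome 9 from 80 Mb (-0.51, 56 genes). The other 4 windows of chromosome 16 ranked 10, 16, 27 and 30 from the lowest, with medians of -0.36, -0.33, -0.22 and -0.21. Stretches of lower genes thus occurred on other chromosomes too, and no test of the difference was possible with 1 library per group. The window at rank 1 has the bounds of the proximal class, which were chosen on this comparison, so its rank restates that choice. Chromosome 16 itself was chosen with earlier results of these data known, so its rank among chromosomes is no independent result. The windows of chromosome 16 leave out the same names as the classes. With these names put back, the proximal stretch held 65 genes, with a median of -0.73 and 87.7% below 0.

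**Figure D5:**
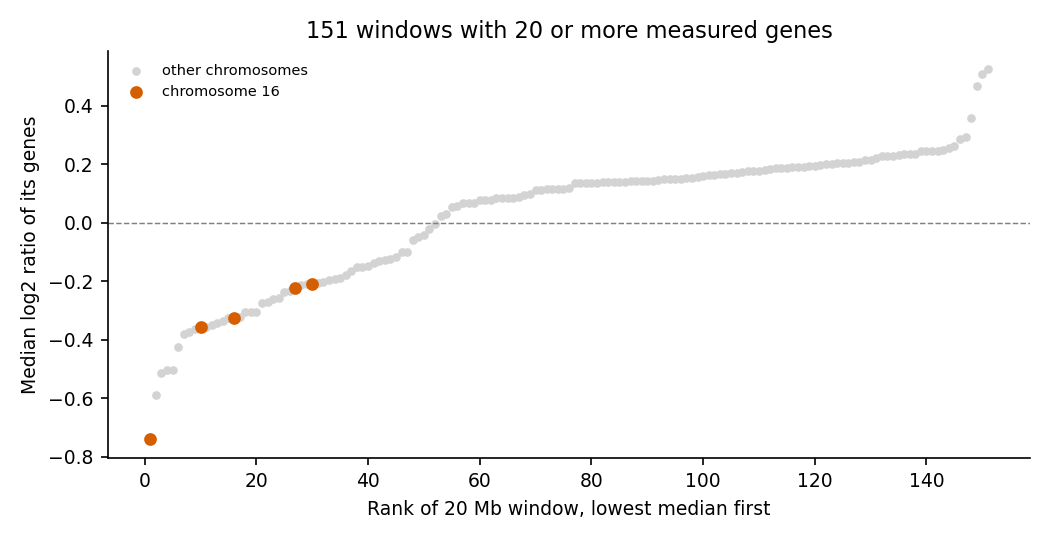
Median log2 ratio (FPKM + 1, shRON over shNT) of 151 windows of 20 Mb, ranked from the lowest. The proximal long arm of chromosome 16, whose bounds were chosen on this same comparison, is at rank 1 with -0.74. The other 4 windows of the chromosome lie between ranks 10 and 30.

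Of the 1038 genes that the rule placed on chromosome 16, 428 stayed under 1 FPKM in both libraries, 217 of them at 0. Of the 610 members, 564 reached 1 FPKM in both libraries. Just inside the filter were C16orf71 (1.01 to 0.702 FPKM) and XYLT1 (1.03 to 0.208), and just outside it MPV17L (0.946 to 0.517) and LOC440356 (0.941 to 0.980). Overlap with another measured gene touched 121 members. With a pseudocount of 5 in place of 1, the medians were -0.18, -0.39 and -0.20.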

How the data were processed

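RNA from 2 libraries was compared, 1 per group, with groups taken from the treatment labels. The authors deposited a Cufflinks-style table of RefSeq transcripts per library, per the file headers, with FPKM (fragments per kilobase of transcript, scaled to library size) and coverage, a signal of mean read depth per transcript. The build is hg19 and DESeq is named without a role, per the submitters' processing notes. The aligner, versions and use of strand were not given in the sources used here.

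Tables were matched by transcript ID, FPKM was summed per gene, and genes at 1 FPKM or more in either library were kept. Log2 ratios used a pseudocount of 1. A gene counted as lower or higher at 1.5-fold or 2-fold on that scale. No p-value was computed. Fragments were estimated as coverage times length over the bases of 1 read pair (244 in shNT, from 280 genes, and 241 in shRON, from 276), and intervals are 95% Clopper-Pearson on these estimates. Class medians were also computed on simulated data with known class shifts and counting noise only. A match to those shifts was required with a pseudocount of 0.1 and a minimum of 5 FPKM, not at the setting reported here. Strand came from GENCODE 44, matched by symbol for 468 members. Python 3.11.15, pandas 2.3.3 and scipy 1.17.1 were used.

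The members, bounds and the 11 functional lists were chosen with earlier results of these data known. Genes were named from these: per class, the 5 lowest and 5 highest at 5 FPKM or more (8 and 8 on the distal long arm), the 3 most abundant, those at the bounds and the filter, and 4 of each list with the largest log2 ratios. Other genes named were chosen after their values were seen. A low FPKM rests on few fragments and is less precise. Some members are counted in the classes and lists but are not reported here by name.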

Additional observations from a re-analysis of the deposited data

How the results depend on the processing

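In all 17 other settings, 15 planned and 2 added after seeing the data (1 FPKM in both libraries, and no overlapping genes), the proximal long arm kept the lowest of the 3 medians and no median changed sign. Some settings could not change this order. Leaving out short RNA genes, or genes with a status other than OK, removed 0 members. Subtracting the median of all measured genes moves the 3 classes alike. The bounds were also chosen on these 2 libraries, so the order is no independent support. Over all 17 settings the medians ranged from -0.33 to -0.18 (short arm), -0.91 to -0.39 (proximal) and -0.33 to -0.20 (distal). A pseudocount of 5, which by construction shrinks ratios of low genes, gave medians of -0.18 (short arm) and -0.39 (proximal) and counts of genes lower by 1.5-fold of 35, 21 and 15 on the short arm, proximal and distal long arm. With a minimum of 5 FPKM, which leaves 37 proximal genes, 25 of them were lower. With the upper bound at 55 Mb, which moves 33 genes, 16 of 28 proximal and 58 of 234 distal genes were lower. A bound at 65 Mb moved no gene. Counts of higher genes are small, from 0 to 8 per class over the settings. With the median of all measured genes subtracted the short-arm and proximal medians were -0.32 and -0.78, and with the trend on level subtracted -0.32 and -0.80. No paired analysis was possible because each group has 1 library, and for the same reason no library could be left out. Depth limits genes near 1 FPKM, and the spread between cultures was not measured.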
